A study of Macaca mulatta with 5 samples.

Results

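TRIM22 and IFITM1 are genes that interferon, the cytokine cells release on meeting a virus, switches on in many cell types. They were found by gene symbol in the array's probe annotation, and 2 of 14132 named genes were kept, with 2 probe sets each. Both were picked because earlier results of the same arrays had shown them high in stem cells. Their levels and ratios are therefore given as a description, with no test.

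Embryonic stem cells of the rhesus macaque, from line 366.4, were led in steps to serotonin neurons, and RNA of each step was put on an Affymetrix rhesus array. The stages were undifferentiated cells at passage 13 on a mouse embryonic fibroblast layer (ESC), embryoid bodies of 6 to 8 days (EB), neurospheres after 7 to 9 days in medium with N2 supplement (N1), neurospheres given FGF4 over a further 7 to 9 days (N2), and cells left to mature on growth factor reduced matrix once FGF4 was withdrawn (N3). All came from 1 line, and no genotype, virus exposure or interferon treatment is given in the labels. Each stage was 1 array, so no value has a replicate, no difference has a p-value, and differences between stages cannot be told apart from differences between arrays.

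Interferons signal through cell surface receptors and JAK kinases to STAT and IRF transcription factors, which switch on many interferon-induced genes. In human cells TRIM22 is a ubiquitin ligase of the tripartite motif family that restricts several viruses in the nucleus, and IFITM1 is a small membrane protein that hinders the fusion of enveloped viruses with the cell. Pluripotent stem cells are known to respond weakly to interferon while expressing some of these antiviral genes without it.

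Signals were rescaled on each array to a trimmed mean of 500, and 100 was used as a floor. Where either array lay at that floor, the ratio is a bound and carries the words "at least". The first TRIM22 probe set had a signal of 3342 in ESC, then 66.8 (EB), 125 (N1), 105 (N2) and 74.8 (N3). ESC stood alone, and EB and N3 lay below the floor. Its ESC signal was at least 33.4-fold that in EB and in N3, 31.9-fold that in N2 and 26.7-fold that in N1. The order of the later stages has no weight, since all 4 lay close to the floor.

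The other TRIM22 probe set read 178 in ESC and 74.4, 91.8, 88.7 and 56.9 in EB, N1, N2 and N3. ESC was again the highest and the only stage above the floor, but the ratio was only bounded, at 1.78-fold or more. The TRIM22 probe sets thus had the same highest stage and differed widely in the measured size. The ratio for the median of both probe sets is given with the other settings.

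The brighter IFITM1 probe set, whose name marks it as able to bind related transcripts, had a signal of 29943 in ESC, then 2846 (EB), 1933 (N1), 2370 (N2) and 1325 (N3). The other, not so marked, read 16579 in ESC and 562, 603, 384 and 360 in EB, N1, N2 and N3. IFITM1 stayed above the floor at every stage on both, unlike TRIM22. The ratio of ESC to EB was 10.5-fold on the first and 29.5-fold on the second, and that of ESC to N3 was 22.6-fold and 46.0-fold. In a bulk sample, fewer expressing cells and less RNA per cell cannot be told apart.

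**Figure D1:**
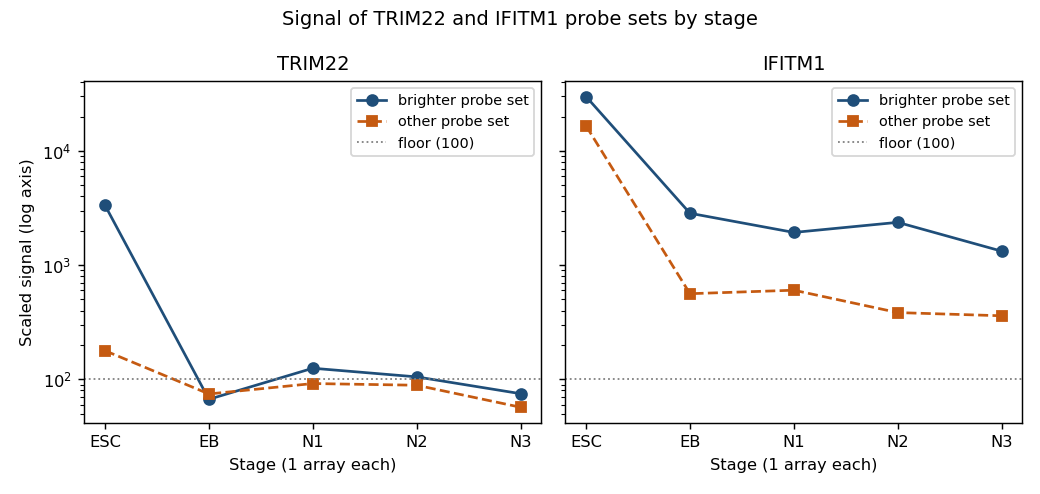
Scaled signal (log axis) of both probe sets of TRIM22 (left) and IFITM1 (right) at the 5 stages, 1 array each, with the floor of 100 dotted. ESC is the highest point on all 4 lines, while TRIM22 lies near or below the floor at every later stage and IFITM1 stays between 360 and 2846.

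Differences among the later stages were small beside these. On the brighter IFITM1 probe set, EB was 2.15-fold above N3, and on the other it was 1.56-fold above. The log2 ratios of N3 to EB were -1.10 and -0.64. As a rough measure of error, ratios from the 2 brightest probe sets were compared gene by gene. The SD of their difference was divided by the square root of 2, and the SD so scaled was 0.62 log2 units for N3 over EB. For ESC over EB that SD was 0.753, against log2 ratios of at least 5.06 and at least 0.83 on the TRIM22 probe sets and of 3.40 and 4.88 on those of IFITM1. It is not a replicate spread. N1 and EB lay within 1.07-fold on the second IFITM1 probe set, and N1 and N2 within 1.23-fold on the first, so the order of those neighbours is not settled.

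Both genes were at least 8-fold higher in ESC than in the highest later stage, as were 25 of 11642 measured genes (0.215%). Neither kept 8-fold in every setting: the log2 ratio was 2.79 for TRIM22 with the median of its probe sets and 2.91 for IFITM1 with equal array medians. At 2-fold the share was 5%. Ordered by that ratio, TRIM22 came at place 3, after DPPA4 and POU5F1, both genes of undifferentiated cells, and IFITM1 at place 15. The choice of the genes rested on this pattern, so nothing is read from these places.

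Genes of similar course were searched among 9768 others that reached 200 at some stage. The measure was the root mean square difference between log2 signals over the 5 stages, after each gene was centred on its own mean. It describes 5 arrays that every gene shares. Nearest to TRIM22 were VTCN1, a membrane ligand that dampens T cells (0.162), DPPA4 (0.262), SFN, a phosphoserine-binding adaptor of epithelial cells (0.31), NPPB, a natriuretic peptide gene (0.35), and ZSCAN10, a zinc finger factor of embryonic stem cells (0.366). VTCN1 had a signal of 2808 in ESC, then 65.9 (EB), 68.2 (N1), 112 (N2) and 13.3 (N3). All 5 stood high in ESC and at or near the floor later, as TRIM22 did. The search picked genes for a course like that of TRIM22 or IFITM1, so nothing is read from that likeness.

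Nearest to IFITM1 were LOC699924 (0.269), the smooth muscle gene CNN1 (0.288), VRTN (0.291), PMAIP1, a gene that promotes cell death (0.305), and the DNA methyltransferase gene DNMT3B (0.345). PMAIP1 read 9967 in ESC and 958, 893, 652 and 330 in EB, N1, N2 and N3, which, like IFITM1, was a large step followed by lower but measurable signals. On the brightest probe sets TRIM22 and IFITM1 differed by 0.585, and 12 genes lay nearer to TRIM22 than IFITM1 did. With the IFITM1 probe set not marked for related transcripts, the difference was 0.255, and TRIM22 was then the nearest gene to IFITM1. The other TRIM22 probe set differed by 1.754 from that IFITM1 probe set and by 1.272 from the brighter one. Both genes were picked for being high in ESC, so nothing is read from their likeness. The nearest genes of TRIM22 depended on the floor and on the probe set. With a floor of 50, 2 of the 5 were shared. With no floor 0 of the 5 were shared and the nearest was UBD, an interferon-induced ubiquitin-like gene (301 in ESC and between 4.3 and 8.01 later). With the median of probe sets 0 of the 5 were shared too, and the nearest was PRDM14 (735 in ESC and between 42.6 and 64.6 later).

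**Figure D2:**
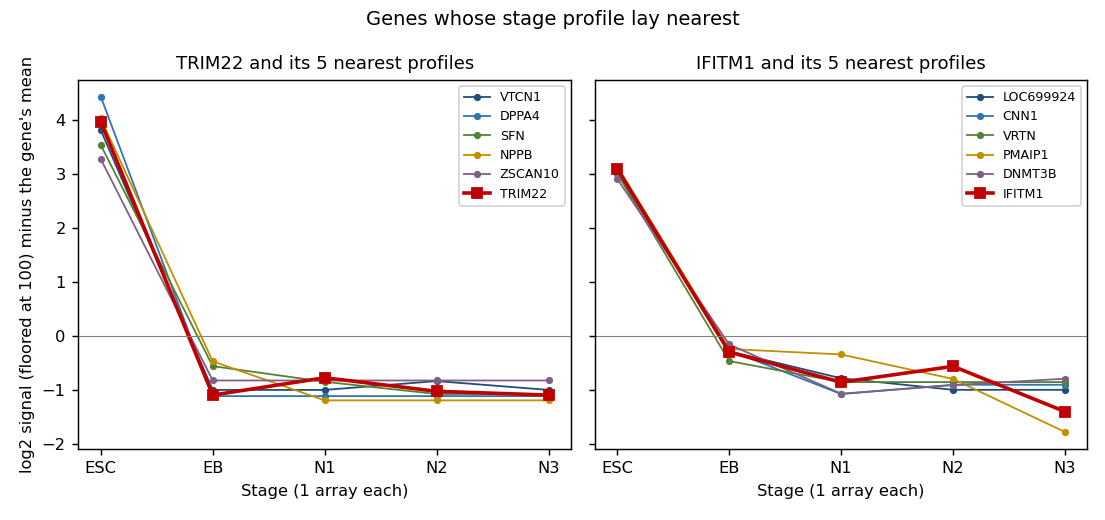
Log2 signal, floored at 100 and centred on the gene's own mean, for TRIM22 (left) and IFITM1 (right) in red with the 5 nearest genes each, over the 5 stages. All lines drop between ESC and EB and stay low, and the 5 genes around TRIM22 lie within 0.366 of it and those around IFITM1 within 0.345. The genes were picked for this likeness.

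The rest of the pathway was followed from the ligands inwards. Of the 12 interferon genes listed, 5 had a probe set, and 4 of these lay below the floor at every stage. IFNA21, an interferon alpha gene, reached 154 in N1 and was below 100 elsewhere, with its other probe set below 100 throughout. Of the receptor genes, IFNAR2, a subunit of the type I interferon receptor, had a signal of 1698 in ESC, then 635 (EB), 335 (N1), 330 (N2) and 341 (N3). ESC was highest, 2.67-fold above EB, and N1 to N3 were level. Its other probe set read 134 in ESC and stayed below the floor later, and the log2 ratio was 0.92 with the median of both. IFNAR1, IFNGR1, IFNGR2, JAK1 and IRF9 were not analysed here.

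Of the signalling list, 12 members were measured in ESC against EB, 2 at least 2-fold higher in ESC and 1 lower. Among all genes 11.8% were higher and 12.1% lower. STAT3, a transcription factor downstream of many cytokines, read 632 in ESC and 102, 185, 104 and 225 in EB, N1, N2 and N3, so ESC was 6.19-fold above EB. Its EB signal lay just above the floor. The log2 ratio of 2.63 was 1.33 with values as deposited and 1.66 with a floor of 200, still past 2-fold. SOCS1, an inhibitor of JAK kinases, was 2.57-fold above EB but did not stand alone, at 645 in ESC, then 251 (EB), 568 (N1), 240 (N2) and 578 (N3). PIAS1, a SUMO ligase that restrains cytokine signalling, was 2.26-fold lower in ESC (3122) than in EB (7045). Its probe sets disagreed, since another read 679 in ESC and 166 in EB, and its log2 ratio of -1.17 was -0.74 without probe sets marked for related transcripts. With equal array medians SOCS1 had a log2 ratio of 0.88. The counts became 4 higher and 1 lower of 14 with a floor of 50 (16.3% and 12.5% of all genes). They were 6 and 1 of 16 with no floor (22.6% and 14.4%), and 1 and 2 of 12 with equal medians (5.98% and 23.9%). With equal medians the median log2 ratio was -0.19 for the list and -0.41 for all genes, instead of 0.30 and 0.06.

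Some core genes of the response were dim. STAT2, a transcription factor of the type I interferon response, read 166 in ESC and between 36.3 and 54.4 later, at least 1.66-fold higher in ESC. IRF1, an interferon-induced transcription factor, read between 129 and 202 at all stages, and the kinase gene TYK2 was below the floor throughout. Both IRF3 and IRF8 differed along the culture. IRF3, which the virus sensors activate, had a signal of 2141 in ESC and 1840, 1123, 791 and 758 in EB, N1, N2 and N3. It was thus higher in the first stages, 2.43-fold between EB and N3. IRF8, a factor of myeloid cells and the interferon gamma response, ran the other way on its brightest probe set, at 37.6 in ESC, then 44.3 (EB), 109 (N1), 764 (N2) and 964 (N3). Its other probe sets stayed at or below 161 and did not show this course.

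Among the sensors of viral nucleic acid, 14 members were measured in ESC against EB. Of these, 2 were at least 2-fold higher in ESC than in EB, the adaptor genes MAVS (at least 2.53-fold) and TRAF6 (2.23-fold), and 1 was lower, the RNA helicase gene DHX58 (2.21-fold), beside 11.8% and 12.1% of all genes. Of the 14, 7 had their highest signal in ESC, as did 36.4% of all genes. TLR4 (112), TLR9 (154), CGAS (127) and ZBP1 (102) passed the floor only in ESC. Their place in that count was fixed by the floor, and nothing is read from it. The calls of MAVS, TRAF6 and DHX58 each ended in some setting. The log2 ratio of MAVS was 0.01 with values as deposited and 0.34 with a floor of 200. That of TRAF6 was 0.31 with that floor and 0.67 with equal array medians, and that of DHX58 was -0.99 after quantile normalisation. MAVS read 253 in ESC and 89.4, 367, 134 and 321 in EB, N1, N2 and N3, so ESC was not its highest stage. STING1, the adaptor for DNA in the cytosol, was lowest in ESC, at 22.5, and read 130 (EB), 364 (N1), 419 (N2) and 712 (N3) afterwards. Its other probe set was below the floor at every stage.

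**Figure D3:**
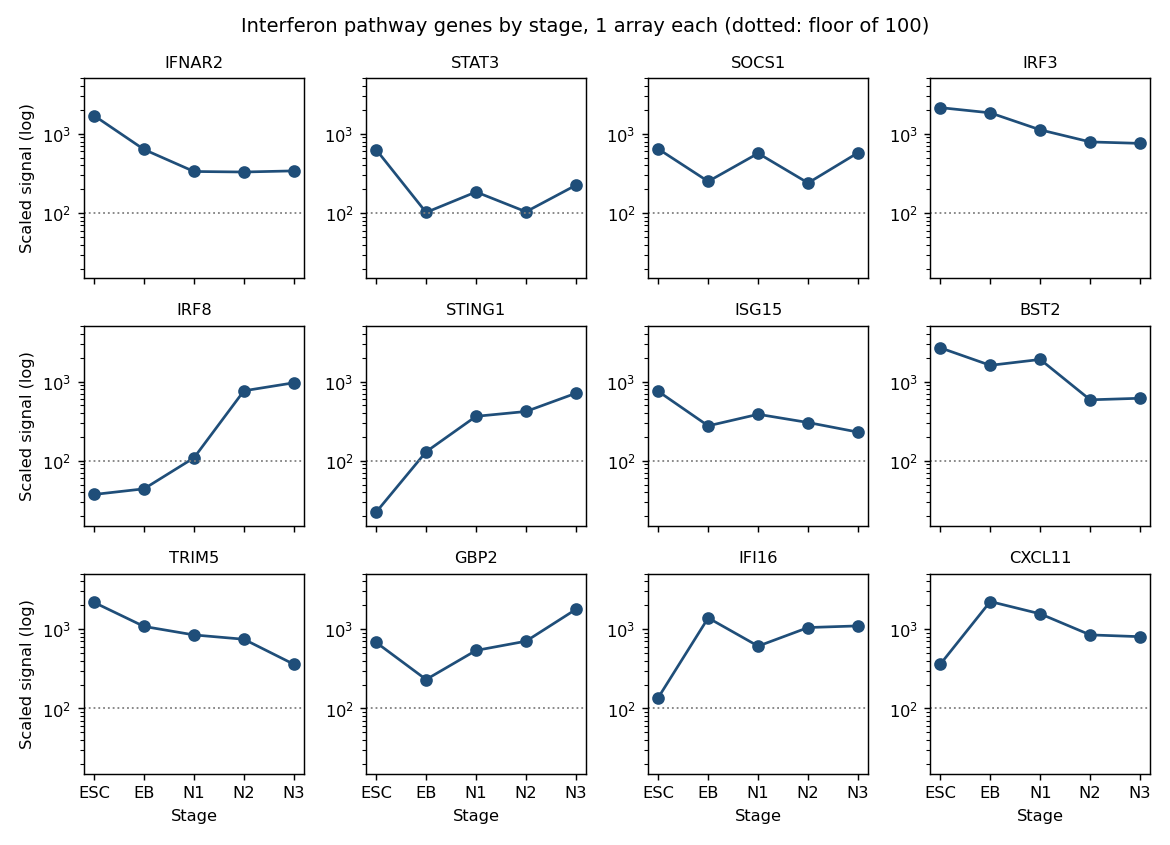
Scaled signal (log axis) of 12 genes of interferon reception, signalling, sensing and response at the 5 stages, brightest probe set, 1 array each, floor of 100 dotted. IFNAR2, STAT3, SOCS1, IRF3, ISG15, BST2 and TRIM5 were highest in ESC with a smaller step than TRIM22, whereas STING1, IFI16 and CXCL11 were lowest in ESC. GBP2 was highest in N3, as was IRF8, which lay below the floor in ESC and EB.

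The list of interferon-induced genes had 55 of 78 members with a probe set, TRIM22 and IFITM1 among them. Of 45 measured in ESC against EB, 5 were at least 2-fold higher in ESC and 7 lower, and 33 were within 2-fold. Their median log2 ratio was 0.09, against 0.06 over all measured genes. Without TRIM22 and IFITM1, 3 of 43 were higher and 7 lower, beside 11.8% and 12.1% of all genes. TRIM22 and IFITM1 had the highest ratios on the list.

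The 3 others above 2-fold were GBP2, ISG15 and TRIM5. GBP2, a GTPase that acts on intracellular microbes, read 681 in ESC, then 232 (EB), 540 (N1), 706 (N2) and 1782 (N3). Its highest stage was N3, not ESC, and its other probe sets lay below the floor throughout. ISG15, a ubiquitin-like modifier named after its values were seen, read 752 in ESC and 276, 386, 304 and 230 in EB, N1, N2 and N3, and was 2.73-fold higher in ESC than in EB, with a log2 ratio of 0.96 under equal array medians.

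TRIM5, whose product recognises retrovirus capsids in macaque cells, is the next protein-coding gene to TRIM22 in the RefSeq annotation of assembly T2T-MMU8v2.0. Its brightest probe set read 2179 in ESC, then 1084 (EB), 847 (N1), 747 (N2) and 361 (N3). A second read 715, 111, 175, 46.6 and 64.9 at the same stages in order, and another 476, 122, 199, 98.8 and 61.2. ESC was the highest on all 3, by 2.01-fold over EB on the brightest (a log2 ratio of 0.52 with equal array medians), and its last probe set stayed below the floor. BST2, which tethers budding viruses to the cell, was also highest in ESC on both probe sets, at 2663 in ESC and 1601, 1899, 588 and 615 in EB, N1, N2 and N3 on the brighter. ESC was 1.66-fold above EB there, short of 2-fold, and 3.09-fold above EB on the other.

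The members lower in ESC included IFI16, CXCL11 and TDRD7. IFI16, a nuclear DNA sensor, read 137 in ESC, then 1389 (EB), 612 (N1), 1050 (N2) and 1101 (N3), and its other 2 probe sets stayed below the floor. ESC was 10.2-fold below EB. The probe set used is marked as able to bind related transcripts, and IFI16 had no measured ratio without such probe sets or with the median of its probe sets. CXCL11, a chemokine that attracts T cells, was 6.16-fold lower in ESC (362) than in EB (2234), and read 1563 in N1, 848 in N2 and 805 in N3. Its other probe set was below the floor at every stage, and its log2 ratio of -2.62 was -1.31 with the median of both. TDRD7, a Tudor domain gene, was below the floor in ESC and at 395 in EB, and its log2 ratio of -1.98 was -0.65 with values as deposited. The others, named after their values were seen, were NMI (2.50-fold), XAF1 (at least 2.48-fold), CMPK2 (at least 2.33-fold) and DHX58. With a floor of 200 the log2 ratios of NMI, XAF1 and CMPK2 were -0.33, -0.31 and -0.22, short of 2-fold. The other XAF1 probe set went the opposite way, at 115 in ESC and 62.1 in EB. With the median of both, the log2 ratio of XAF1 was -0.56.

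**Figure D4:**
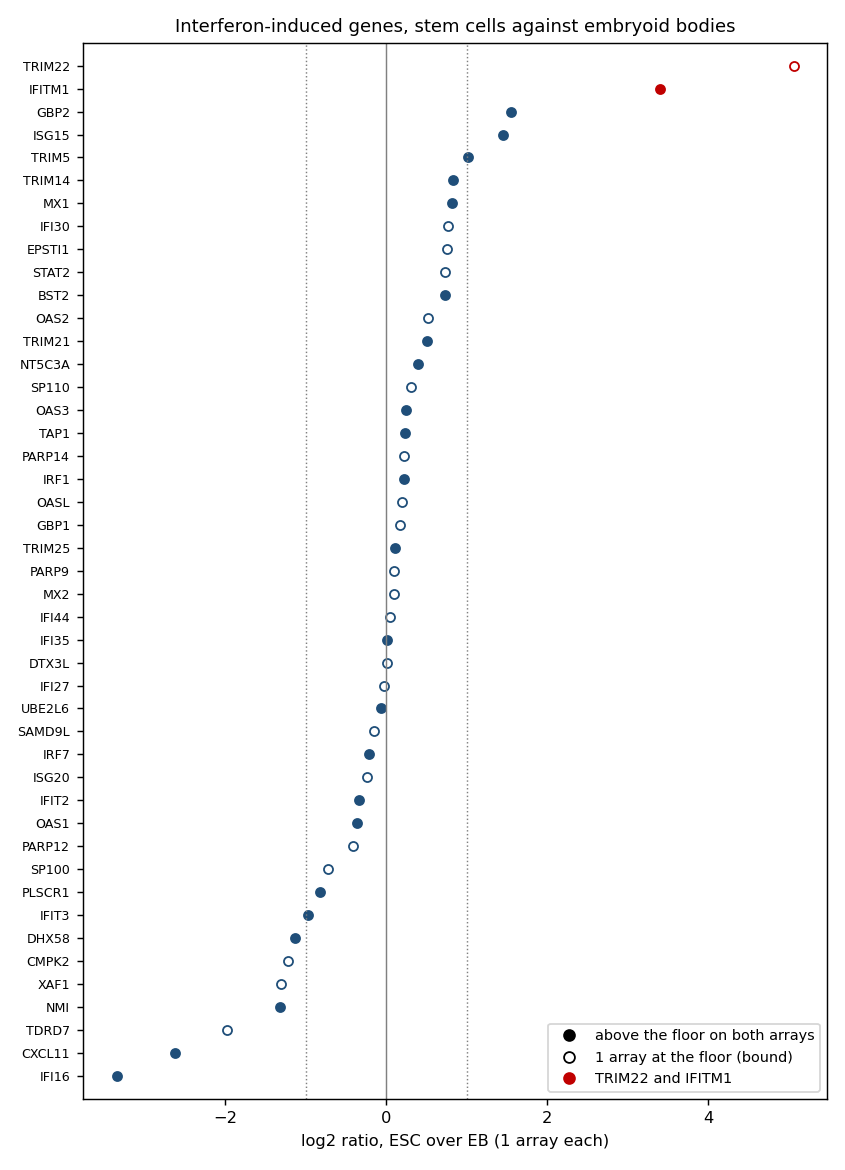
Log2 ratio of ESC to EB for the 45 measured interferon-induced genes, sorted, 1 array a stage, with open points where 1 array lay at the floor and dotted lines at 2-fold. TRIM22 (5.06, a bound) and IFITM1 (3.40) lie at the top, 33 genes lie within 2-fold, and IFI16 (-3.35) lies at the bottom.

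Against the other stages the list gave a like split. Without TRIM22 and IFITM1, 3 of 44 members were at least 2-fold higher in ESC than in N1 and 9 lower (11% and 13.2% of all genes). Against N2, 4 of 44 were higher and 8 lower (17.1% and 16.5% of all genes), and against N3, 5 were higher and 7 lower (16.4% and 17.2%). These comparisons share the ESC array. Between N3 and EB, 2 of 36 were at least 2-fold higher in N3 and 8 lower (13% and 11.2% of all genes), and the median log2 ratio was -0.25 against -0.07 over all genes. Of the list's 29 genes with several probe sets, 19 had at least 1 that lay below the floor at every stage, so a gene's value often rests on 1 probe set.

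Of the genes of antigen presentation, which interferon also raises, 8 were measured in ESC against EB. On their brightest probe sets 0 of these passed 2-fold in either direction, beside 11.8% and 12.1% of all genes. Against N3, 2 of 7 were higher in ESC and 1 lower, beside 16.4% and 17.2%. B2M, the invariant chain of class I molecules, read 21979 in ESC and 11632, 9624, 10809 and 6878 in EB, N1, N2 and N3 on its brighter probe set, with a like course on the other. ESC was 1.89-fold above EB on the first and 2.11-fold on the other, and 3.20-fold above N3 on the first. PDIA3, a chaperone of the peptide-loading complex named after its values were seen, was 1.42-fold higher in ESC than in EB on its brightest probe set and 6.93-fold on another. PSMB10, an immunoproteasome subunit, went from 1808 in ESC to 1055 in EB and 369 in N3.

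In the families, IFITM10, the other IFITM gene with a probe set under that name, was below the floor at every stage, so no ratio is given. The gene next to IFITM1 in the RefSeq annotation, LOC697829, read 50456 in ESC, then 27559 (EB), 20508 (N1), 22758 (N2) and 13974 (N3). ESC was highest, by 1.83-fold over EB, and its other probe set had a like course. Both its probe sets are marked as able to bind related transcripts, as is the brighter one of IFITM1, and whether they share signal was not tested. Among the 8 protein-coding genes on either side of IFITM1, 8 of 16 had a probe set, and LOC697829 is one of them. PTDSS2, a gene of phosphatidylserine synthesis, and BET1L were highest in ESC, at 1366 and 780 against 877 and 465 in EB. PSMD13, a proteasome subunit gene, was 1.68-fold lower in ESC (6659) than in EB (11195), while RIC8A read 767 in ESC and 710 in EB. Around TRIM22, 4 of 16 had one, and OR52B6, an odorant receptor gene, read 193 in ESC and at most 98.6 later. These neighbours were chosen by position after the data were seen.

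TRIM genes other than TRIM22 numbered 43 with a probe set. Of 30 measured in ESC against EB, 7 were at least 2-fold higher in ESC and 2 lower, against 11.8% and 12.1% of all genes. The median log2 ratio was 0.53, against 0.06 over all genes. With array medians set equal, which lowered the median of all genes to -0.41, it was 0.04. Of 30 measured there, 2 were higher and 2 lower, beside 5.98% and 23.9% of all genes. Named after their values were seen, TRIML2 was at least 3.45-fold higher (345 in ESC and below 50 later, with a log2 ratio of 0.46 as deposited) and TRIM63, a ubiquitin ligase of striated muscle, was 4.16-fold lower, at 158 in ESC against 658 in EB. With TRIM22 in the list the median was 0.55. The close relatives TRIM6 and TRIM34 were not analysed here.

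The arrays and cells differed in other ways between ESC and later stages. The 3' to 5' signal ratio of the actin control was 1.73 in ESC and between 5.43 and 25.21 later. That of GAPDH was 1.94 in ESC and 1.69 to 7.1 later, and that of EF1a 0.86 in ESC and 0.83 to 1.88 later. Of 7 measured stem cell genes, 4 were at least 2-fold higher in ESC than in EB and 0 lower, with POU5F1 at 31.6-fold, beside 11.8% and 12.1% of all genes, which are also the shares for the counts that follow. NANOG, a factor of undifferentiated cells, read 1047 in ESC, 1178 in EB and 2155 in N3. SALL4, another such factor, read 2395 in ESC and 2892 in EB, and SOX2, shared with neural precursors, read 19736 in ESC, 3413 in EB and 14978 in N3. The summed signal of 9 fibroblast genes was 50726 in ESC and 51910 to 97843 later. VIM alone gave 35324 of the sum in ESC. Within that list THY1 was 8.67-fold higher in ESC than in EB, whereas LUM and DCN, which mark fibroblasts, were below the floor in ESC on their brightest probe sets. In all, 4 of 9 were at least 2-fold higher in ESC than in EB and 3 lower. How far RNA of the mouse feeder cells added to the ESC signal of TRIM22 and IFITM1 was not tested. The summed signal of 8 leukocyte genes was 1605 in ESC and 1874 to 3322 later, and PTPRC, which marks all leukocytes, was below the floor on every array and probe set. Of 5 measured leukocyte genes, 0 were higher in ESC than in EB by 2-fold and 1 was lower. Endothelial genes summed to 3462 in ESC and 11542 in EB, where all 4 measured members were at least 2-fold higher. TEK alone gave 8706 of the sum in EB, and its other probe set went the opposite way, at 340 in ESC and 118 in EB. Of 6 measured neuron genes, 2 were higher in ESC than in EB and 3 lower, and their sum went from 4127 in EB to 56166 in N3. The part of these differences in the results was not tested.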

How the data were processed

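Total RNA was labelled with biotin and hybridised to 5 arrays, 1 per stage. The values the authors deposited are linear intensities, with a single value for every probe set on each array. GCOS 1.0 is named in the submitters' processing notes. For the signal algorithm and its scaling target, the answer is not given in the sources used here, and no detection calls were used. The 2% trimmed mean over 52707 non-control probe sets was 199.1 to 199.3 on the arrays, so the deposited intensities had already been scaled.

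Here each array was multiplied to a trimmed mean of 500, values under 100 were set to 100, and log2 was taken (Python 3.11.15, numpy 2.4.6, pandas 2.3.3, scipy 1.17.1). Of 52865 probe sets, 158 controls were left out, 24969 had 1 symbol in the platform annotation, which can be old, 361 had several and 27535 were not listed. A gene was its probe set of highest mean log2 signal, and counted as measured in a comparison if either array exceeded the floor. Genes were counted at 2-fold. The number of arrays limits the precision, and no test could be made. The counting was tested on simulated data, with changes put only into genes well above the floor and with noise smaller than the scaled probe set SD. That simulation cannot show how the counts behave for genes near the floor.

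The genes described, the 12 gene lists and the settings were chosen with earlier results of these arrays known. Named were TRIM22 and IFITM1, IFITM genes and close TRIM genes, up to 6 members per list with the largest ratio past 2-fold between ESC and EB and up to 6 between later stages, core pathway genes whatever their value, and the 5 nearest profiles. No sequence is printed, as none was in the sources used here.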

Additional observations from a re-analysis of the deposited data

How the results depend on the processing

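No paired analysis was possible because each stage was 1 array, and for the same reason no replicate could be left out. The log2 ratio of ESC to the highest later stage stayed above 0 under all 9 alternatives for both genes. For TRIM22 (4.74) it was 3.73 with values as deposited, where the floor weighs more, and 2.79 with the median of its probe sets. For IFITM1 (3.40) it was 4.78 when probe sets marked for related transcripts were dropped. Of 45 interferon-induced genes, 5 were at least 2-fold higher in ESC than in EB and 7 lower (11.8% and 12.1% of all genes). This became 3 and 10 of 43 with equal medians (5.98% and 23.9%), 12 and 9 of 50 with a floor of 50 (16.3% and 12.5%), and 13 and 11 of 55 with no floor (22.6% and 14.4%). It became 5 and 3 of 22 with values as deposited (8.72% and 12%), 5 and 3 of 26 with a floor of 200 (9.72% and 12.3%), and 2 and 2 of 45 at 4-fold (2.32% and 3.69%). The list median of 0.09 was -0.11 once arrays were quantile normalised, -0.26 with equal medians and -0.02 under a floor of 200, where the median of all genes was -0.01, -0.41 and -0.01. Among single genes past 2-fold, TEK had a ratio of 0.01 with the median of probe sets, opposite in sign. Of the other single-gene values, 301 moved by less than the scaled probe set SD of 0.753 and 43 by more. The settings were applied to the TRIM, signalling and p53 lists after seeing the data. The TRIM median without TRIM22 ran from 0.04 to 0.62, the signalling median from -0.19 to 0.30 and the p53 median from 0.67 to 0.81. The median of all genes ran from -0.41 to 0.17 over these settings. The cause of these changes was not tested. Signals near the floor limit TRIM22 after ESC.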

Other observations

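Genes that p53 activates formed another list, chosen because TRIM22 is a p53 target in human cells. Of 16 measured members, 6 were at least 2-fold higher in ESC than in EB and 0 lower, against 11.8% and 12.1% of all genes, and the median log2 ratio was 0.81 against 0.06 over all genes. With equal array medians it was 0.67, against -0.41. GDF15, a stress-induced cytokine, was 4.93-fold higher, the DNA repair gene DDB2 3.60-fold, the cell death gene BAX 3.49-fold, ZMAT3 3.41-fold, the cell death gene BBC3 2.35-fold and MDM2, which degrades p53, at least 2.03-fold. The MDM2 call held in 2 of 9 other settings, with a log2 ratio of 0.40 under a floor of 50 and 0.02 under a floor of 200, and BBC3 had 0.75 with equal medians. BAX read 3010 in ESC and 862, 859, 614 and 627 in EB, N1, N2 and N3. CDKN1A, the cell cycle inhibitor, did not share this course: it read 1196 in ESC, then 695 (EB), 1218 (N1), 2483 (N2) and 3160 (N3). PMAIP1 and SFN, which lay near IFITM1 and TRIM22 in course, are also known p53 targets and were not in the list. They were named after their values were seen, among genes picked for a course like that of IFITM1 or TRIM22. Nothing is therefore read from their course.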
